A study of Mus musculus with 12 samples.

Results

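The casein kinases were followed in salivary tumors of MMTV-Hras mice through every probe set that the array annotation assigns to Csnk2a1, Csnk2a2, Csnk2b, Csnk1a1, Csnk1d or Csnk1e as its only gene symbol. This rule took 23 of the 22626 tested probe sets, with 6 for Csnk2a1, 7 for Csnk2a2, 3 for Csnk1a1, 5 for Csnk1d and 2 for Csnk1e. Csnk2b had no probe set under this rule, and its expression was not analysed here. Sister probe sets, those of the same gene, formed 50 of the 12821 such pairs in the table.

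RNA was measured in 12 salivary tumors, 1 array each, in 3 groups of 4: tumors homozygous for a p53 R172H knock-in allele (MT1 to MT4), tumors without p53 (KO1 to KO4) and tumors of wild-type p53 status (WT1 to WT4). All groups carried the v-Ha-ras transgene under the MMTV promoter, which is active in mammary and salivary epithelium, on a mixed BALB/c and C57BL/6 background. By the study's methods, the MT mice came from their own colony, begun by mating R172H mice on C57BL/6 to transgenic mice on the mixed background. The share of each strain and the colony may therefore go with the MT genotype, and their parts cannot be told apart from it. The labels call the mice adult and give no ages by tumor. In the study's cohorts, salivary tumors arose earliest in mice without p53 and latest in those of wild-type p53 status. Age may therefore go with genotype in these 12 tumors, and its part in the differences cannot be told apart from that of genotype. The tumors were relatively small adenocarcinomas selected for size, growth rate and histology. The labels number the tumors without saying whether each was from its own mouse, and the p-values therefore cover only the spread among these 12 tumors.

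CK2 and CK1 are separate families of serine and threonine kinases. They share a name because casein was used to assay both, not because milk casein is their substrate in cells. CK2 is a constitutively active complex of catalytic alpha subunits, encoded by Csnk2a1 and Csnk2a2, with a regulatory beta subunit encoded by Csnk2b. It phosphorylates acidic sites in a very large number of proteins and is often elevated in tumors. The CK1 enzymes act as single chains: CK1 alpha, from Csnk1a1, primes beta-catenin for destruction, whereas CK1 delta and CK1 epsilon, from Csnk1d and Csnk1e, phosphorylate the PER proteins that set the length of the circadian day.

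The promoters of both CK2 catalytic genes are shown because p53 is a transcription factor and its genotype is the variable of the study. RefSeq on GRCm38.p6 places the Csnk2a1 window at chr2:152226590-152226889 on the plus strand and the Csnk2a2 window at chr8:95488771-95489070 on the minus strand, each running from upstream of the gene start to shortly past it. Capitals mark matches to the GC box GGGCGG on either strand.
Csnk2a1: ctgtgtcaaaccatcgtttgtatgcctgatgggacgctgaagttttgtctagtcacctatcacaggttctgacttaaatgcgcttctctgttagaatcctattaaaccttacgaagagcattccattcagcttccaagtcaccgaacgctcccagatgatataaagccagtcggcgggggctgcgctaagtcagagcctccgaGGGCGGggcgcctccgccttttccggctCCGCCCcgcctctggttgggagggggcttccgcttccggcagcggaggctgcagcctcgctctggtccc
Csnk2a2: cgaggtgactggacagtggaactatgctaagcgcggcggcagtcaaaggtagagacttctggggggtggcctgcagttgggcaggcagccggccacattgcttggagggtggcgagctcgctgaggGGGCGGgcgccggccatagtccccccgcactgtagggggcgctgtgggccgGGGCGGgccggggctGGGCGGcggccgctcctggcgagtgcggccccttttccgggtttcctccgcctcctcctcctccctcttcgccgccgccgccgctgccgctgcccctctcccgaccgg
Csnk2a1 held 2 GC boxes in a window of 57.3% G and C, and Csnk2a2 held 3 in a window of 73% G and C. Of 32851 windows of this length, 35.7% held at least 1. The ETS core CCGGAA matched 2 times in the Csnk2a1 window and 1 time in that of Csnk2a2 (14.9% of windows held it), and the TATA box TATAAA matched once in Csnk2a1 alone (13.6%). The CCAAT box, by the letters CCAAT, matched neither (37.4% of windows). The p53 response element, searched by name, was found in neither window, and 0.0731% of all windows held it. Motifs were searched on both strands without overlap between different motifs being removed. These matches describe letters in the windows only.

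Before the kinases, the labels and arrays were checked. Trp53 read 7.88 to 9.04 in MT tumors, 5.85 to 6.36 in KO tumors and 7.38 to 8.01 in WT tumors at the first of 2 probe sets, and all KO tumors were below every other tumor at both. The poly-A controls, RNAs added before labeling, averaged 10.38 to 10.56 in MT1, MT2 and MT3, 4.05 in MT4, 3.98 to 4.11 in KO tumors and 4.11 to 4.23 in WT tumors. They set MT1 to MT3 apart from the 9 remaining tumors, which is treated here as a labeling batch although no source names one. In a fit with a block for this batch, every MT value rests on MT4, which is assumed to vary like the other tumors, and the KO minus WT difference stays the same. The mean level of 5 epithelial marker genes (keratins among them) was high in all tumors, at 11.13 to 11.93 in MT, 11.76 to 12.04 in KO and 10.37 to 12.11 in WT tumors. The 4 markers of salivary acini averaged 8.32 to 9.86 in MT, 7.26 to 9.05 in KO and 10.70 to 11.48 in WT tumors, and 2 of them (Dcpp1 and Prpmp5, secreted salivary proteins) were called lower in KO than in WT tumors. The other 2 were not called, with means of 7.86 in KO and 12.09 in WT tumors for the amylase gene Amy1 and of 12.23 in KO and 11.73 in WT tumors for Aqp5, a water channel. Leukocyte markers averaged 6.67 to 7.16 in MT, 6.58 to 7.09 in KO and 6.99 to 8.90 in WT tumors, and endothelial markers 5.63 to 6.10 in MT, 5.32 to 5.74 in KO and 5.85 to 6.32 in WT tumors, with Cd68 and Pecam1 called lower in KO than in WT tumors (adjusted p = 0.0483 and 0.044 by limma, and 0.0537 and 0.0519 under the batch block). The part of these cells in the kinase differences was not tested. In bulk tissue, fewer cells of a type and less RNA per cell cannot be told apart.

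Across the 3 comparisons, few casein kinase probe sets passed the test. The catalytic CK2 gene Csnk2a1 exceeded its WT level in MT tumors at 1 probe set, and Csnk1a1 was lower in KO than in WT tumors at 1 probe set. A call means an adjusted p under 0.05 by limma with Benjamini-Hochberg adjustment over all 22626 probe sets. For MT minus KO, 0 of the 23 were called (0.00884% of all probe sets, 2 in number), with 3 of 23 at an unadjusted p under 0.05 (9.58% of all probe sets). For KO minus WT, 0 were called higher and 1 lower (4.57% of all probe sets in either direction, 1.94% higher and 2.64% lower), with 7 of 23 at an unadjusted p under 0.05 (23.9% of all probe sets). For MT minus WT, 1 was called higher and 0 lower (0.367% of all probe sets in either direction and 0.177% higher), with 6 of 23 at an unadjusted p under 0.05 (19.4% of all probe sets). The median difference over the 23 was 0.01 for MT minus KO, 0.14 for KO minus WT and 0.16 for MT minus WT on the log2 scale, against 0.02, -0.02 and -0.01 over all probe sets.

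Csnk2a1, on chromosome 2, encodes the alpha catalytic subunit of CK2. The probe set 1419036_at read 9.32, 9.24, 9.45 and 9.37 in MT1 to MT4, 8.77, 9.13, 8.89 and 8.95 in KO1 to KO4, and 8.65, 8.75, 8.52 and 8.62 in WT1 to WT4. The 3 genotypes did not overlap at this probe set: every MT tumor was above every KO tumor and every KO tumor above every WT tumor. MT4, whose poly-A controls read like those of the KO and WT tumors, lay within the range of the other MT tumors.

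The mean of 1419036_at was 9.34 ± 0.09 in MT, 8.94 ± 0.15 in KO and 8.64 ± 0.10 in WT tumors (log2, SD, n = 4 each). MT exceeded WT tumors by 0.70 on the log2 scale (SE 0.10, 1.63-fold, limma adjusted p = 0.0246), a call. Under the batch block, where the MT value rests on MT4 alone, the difference was 0.73 (SE 0.17) and was not called. MT exceeded KO tumors by 0.40 (SE 0.10, adjusted p = 0.254), and KO exceeded WT tumors by 0.30 (SE 0.10, adjusted p = 0.106), neither of which was called (2.88% of all probe sets had MT wholly above KO tumors, 1.97% wholly below and 4.85% either, and of the 23 only this one did). For MT minus WT, 3 of the 23 had MT wholly above and 1 had MT wholly below WT tumors (4.44% and 6.44% of all probe sets). The call for MT minus WT was lost without MT1, MT2, MT3, WT1 or WT3, each left out alone, at differences of 0.67 to 0.74. The study names Csnk2a1 among the genes most highly expressed in MT tumors, chosen on these same 12 tumors, so the difference at this probe set is not independent evidence.

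Tested over the 3 genotypes at once with limma's F test and an adjusted p threshold of 0.01, 0 of the 23 were called (0.0707% of all probe sets, 16 in number), and 1419036_at had adjusted p = 0.0225. SAM, which compares the spread between classes with that within them, called 1 of 23 at a false discovery rate of 1% (0.486% of all probe sets, 110 in number), and this was 1419036_at, at rank 38.

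At 3 of the other 5 Csnk2a1 probe sets the tumors took a different order. The probe set 1419038_a_at read 7.56, 7.53, 7.58 and 8.31 in MT1 to MT4, 7.94, 7.79, 7.98 and 8.16 in KO1 to KO4, and 7.79, 7.37, 7.52 and 7.39 in WT1 to WT4. MT1, MT2 and MT3 sat among the WT tumors, and MT4 was above every other tumor. At 1453427_at the values were 5.43, 5.26, 5.34 and 5.80 in MT1 to MT4, 5.77, 5.61, 6.10 and 6.10 in KO1 to KO4, and 5.45, 5.11, 5.46 and 5.42 in WT1 to WT4. The same separation of MT4 from the other MT tumors was seen at 1419035_s_at, with 5.79, 5.46, 5.69 and 6.40 in MT1 to MT4, 6.03, 6.42, 6.05 and 6.24 in KO1 to KO4, and 5.59, 5.90, 5.67 and 5.89 in WT1 to WT4. The last 2 of these probe sets did not pass a filter on dim values.

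The remaining 2 Csnk2a1 probe sets followed 1419036_at in order of means but with overlap. At 1419034_at the values were 7.30, 7.09, 7.03 and 7.39 in MT1 to MT4, 7.01, 7.50, 6.92 and 7.21 in KO1 to KO4, and 6.80, 6.97, 6.87 and 6.82 in WT1 to WT4, so that all MT tumors were above all WT tumors. At 1419037_at they were 8.51, 8.35, 8.85 and 8.61 in MT1 to MT4, 8.52, 8.51, 8.51 and 7.70 in KO1 to KO4, and 8.37, 7.74, 8.17 and 7.75 in WT1 to WT4. KO4 stood apart from the other KO tumors at this probe set.

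**Figure D1:**
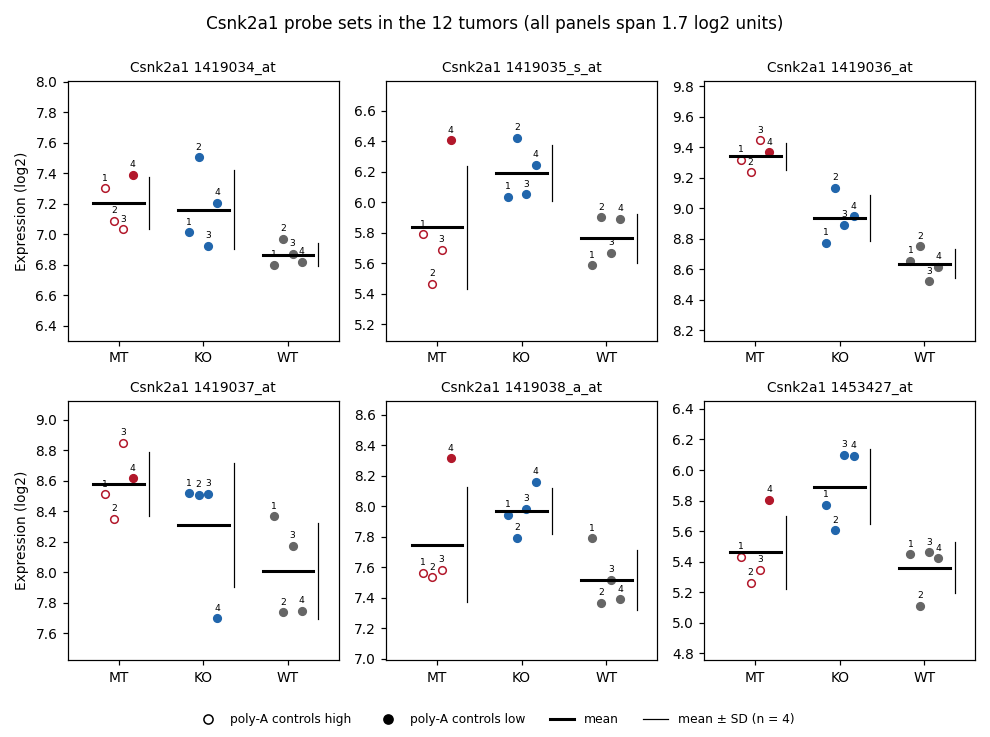
Expression (log2, vertical axis) of the 6 Csnk2a1 probe sets in 4 MT, 4 KO and 4 WT tumors, numbered by tumor, with group means (thick bars) and SD (thin lines); open points are the tumors with high poly-A controls. At 1419036_at the 3 genotypes do not overlap, with MT tumors between 9.24 and 9.45, whereas at 1419035_s_at, 1419038_a_at and 1453427_at MT4 lies apart from MT1 to MT3.

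All 6 Csnk2a1 probe sets had a positive KO minus WT difference, between 0.30 and 0.53 with a median of 0.36, and at 4 of them every KO tumor was above every WT tumor. Of all probe sets, 6.1% had KO tumors wholly above WT tumors (14.5% wholly apart in either direction). None of the 6 was called, 4 had an unadjusted p under 0.05 (23.9% of all probe sets had one), and the lowest adjusted p was 0.0737, at 1453427_at, where KO exceeded WT tumors by 0.53 (SE 0.16, limma). The 6 share their tumors and their gene, so they are not replicates of each other. For MT minus WT the 6 differences were also all positive, from 0.07 to 0.70 with a median of 0.28, and from 0.44 to 0.80 under the batch block. For MT minus KO they split, with 3 above and 3 below zero, from -0.43 to 0.40, and with the block 5 were above zero.

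Whether sister probe sets differ in their genotype difference was tested on the difference between them within each tumor, by limma over all 12821 pairs. For MT minus KO, 2 of the 50 casein kinase pairs were called, a smaller share than the 6.11% of all pairs, and both were of Csnk2a1. Each includes a dim probe set and so drops out with dim probe sets removed, where 2 other pairs of the remaining 23 were called (1419038_a_at with 1419036_at of Csnk2a1 and 1437690_x_at with 1418889_a_at of Csnk1d, 19.7% of all such pairs). The level of 1419036_at minus that of 1419035_s_at was 3.53, 3.77, 3.76 and 2.96 in MT1 to MT4, 2.74, 2.71, 2.84 and 2.70 in KO1 to KO4, and 3.07, 2.85, 2.85 and 2.73 in WT1 to WT4. MT1, MT2 and MT3 stood clear of the rest, and MT4 was nearer to the KO tumors than to the other MT tumors. The gap between these sisters was larger in MT tumors than in those of the KO group by 0.76 (SE 0.17, adjusted p = 0.0332), and by 0.21 (SE 0.18, adjusted p = 0.835) under the batch block. For 1453427_at minus 1419036_at the MT minus KO difference was -0.84 (SE 0.19, adjusted p = 0.0338), and -0.52 (SE 0.28, adjusted p = 0.698) with the block. MT4 is the only MT tumor outside this batch, so the part of the batch and that of MT4 as a tumor cannot be told apart.

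Neither of the 2 pairs was called without MT1, MT2, MT3 or KO4, each left out alone (adjusted p = 0.0794 to 0.109), and leaving out KO1, KO2 or KO3 kept 1 of them. Without MT4 both were called, at 0.94 (adjusted p = 0.000956) and -0.94 (adjusted p = 0.00747) in a fit that called 17.2% of all pairs. No casein kinase pair was called for KO minus WT (5.79% of all pairs) or for MT minus WT (1.24%), with 12 and 8 of 50 at an unadjusted p under 0.05 by limma (25.6% and 25.1% of all pairs).

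How closely sisters moved together within a genotype varied among the genes. The Pearson correlation of the deviations from the group means over 12 tumors had a median of 0.07 over the 15 Csnk2a1 pairs, with a range of -0.29 to 0.80. The highest was that of 1453427_at with 1419038_a_at, and the lowest that of 1453427_at with 1419036_at. The median was 0.65 over 21 Csnk2a2 pairs, 0.64 over 10 Csnk1d pairs and -0.13 over 3 Csnk1a1 pairs, and the single Csnk1e pair had 0.85. Over all 12821 pairs it was 0.62. These correlations describe the same tumors and arrays and carry no test. Probe sets with the suffixes _s_at, _a_at and _x_at can read more than 1 transcript, and RefSeq lists 3 pseudogenes of Csnk2a1, on chromosomes 1, 14 and X, whose share in these signals cannot be told from the table.

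**Figure D2:**
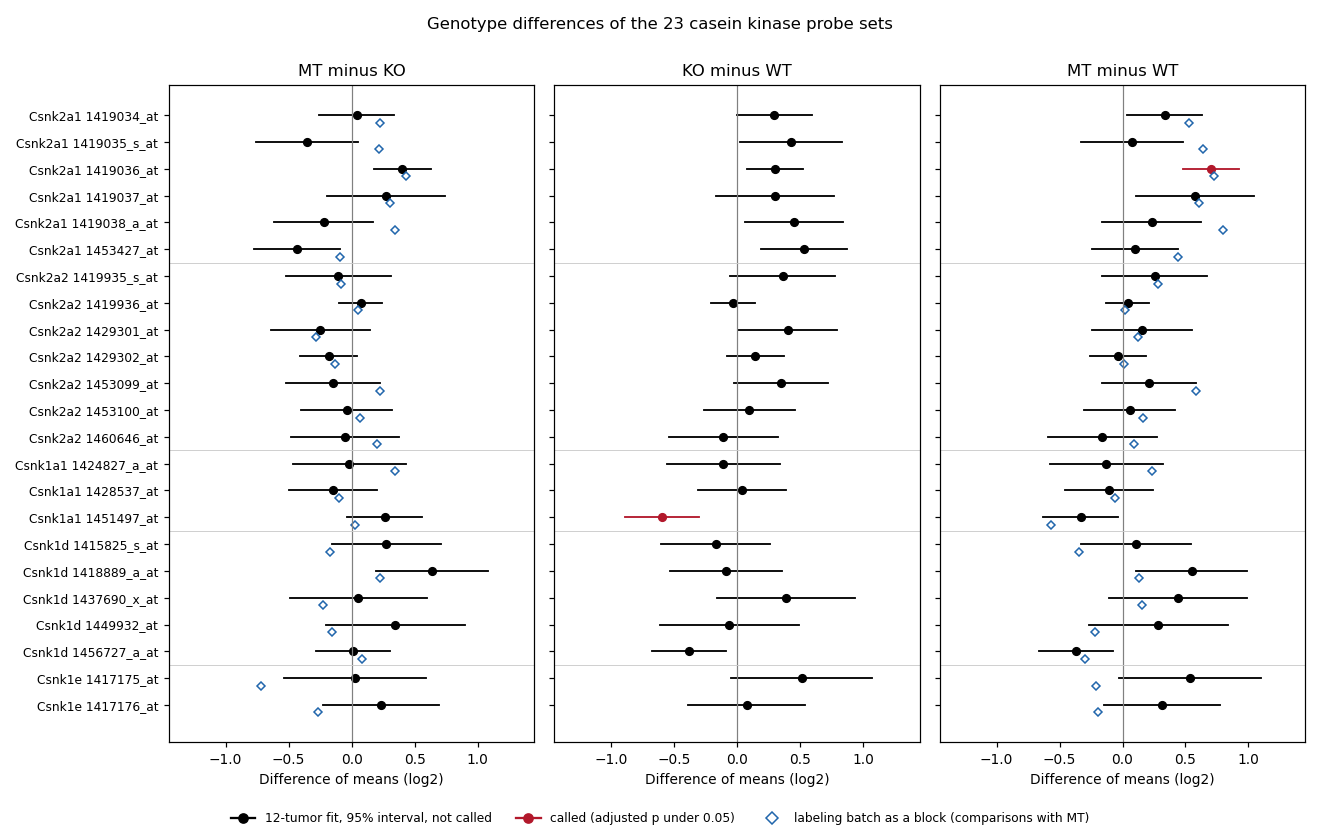
Differences of genotype means (log2, horizontal axis) of the 23 probe sets, grouped by gene, for MT minus KO, KO minus WT and MT minus WT, with 95% intervals of the fit over 12 tumors and, as diamonds, the values with a block for the labeling batch. The 6 Csnk2a1 values lie right of zero for KO minus WT and MT minus WT, and the 2 called values, 0.70 for Csnk2a1 1419036_at and -0.60 for Csnk1a1 1451497_at, are in red.

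Csnk2a2, on chromosome 8, encodes the alpha prime subunit, the other catalytic chain of CK2. None of its 7 probe sets was called in any comparison. At 1453099_at, its probe set of highest mean, the values were 8.12, 8.29, 7.98 and 8.63 in MT1 to MT4, 8.39, 8.05, 8.50 and 8.66 in KO1 to KO4, and 8.23, 7.83, 8.18 and 7.95 in WT1 to WT4. The groups overlapped, and MT4 was again the highest MT tumor. KO exceeded WT tumors by 0.35 (95% interval -0.02 to 0.72, limma adjusted p = 0.235), and MT exceeded WT tumors by 0.21 (95% interval -0.16 to 0.58, adjusted p = 0.526).

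The probe sets 1429301_at and 1419935_s_at tracked each other most closely of the Csnk2a2 pairs (r = 0.93 within genotypes). At 1429301_at the values were 6.46, 6.49, 6.40 and 6.40 in MT1 to MT4, 6.66, 6.13, 6.86 and 7.09 in KO1 to KO4, and 6.47, 6.03, 6.41 and 6.23 in WT1 to WT4. Its KO minus WT difference was 0.40 (SE 0.18, adjusted p = 0.203), with KO2 among the WT tumors. At 1419935_s_at the 4 MT tumors lay between 6.54 and 6.60, all above the WT tumors at 6.05 to 6.46, while KO tumors ran from 6.07 to 7.09, and the MT minus WT difference was 0.26 (SE 0.19, adjusted p = 0.481).

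The probe set 1460646_at had a KO minus WT difference of -0.11 (SE 0.20) and read 7.78 to 8.26 in MT, 7.88 to 8.48 in KO and 7.81 to 8.67 in WT tumors. At 1429302_at the range was 6.84 to 7.03 in MT, 6.97 to 7.23 in KO and 6.80 to 7.10 in WT tumors, and at 1453100_at it was 5.53 to 5.83 in MT, 5.27 to 6.19 in KO and 5.62 to 5.71 in WT tumors. The probe set 1419936_at stayed between 3.77 and 3.92 in all 12 tumors. Together 4 of the 7 (1419935_s_at, 1419936_at, 1429301_at and 1453100_at) did not pass the filter on dim values. Over the 7 the KO minus WT difference had a median of 0.14 and ran from -0.11 to 0.40, and for MT minus KO it had a median of -0.11 and ran from -0.25 to 0.07.

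**Figure D3:**
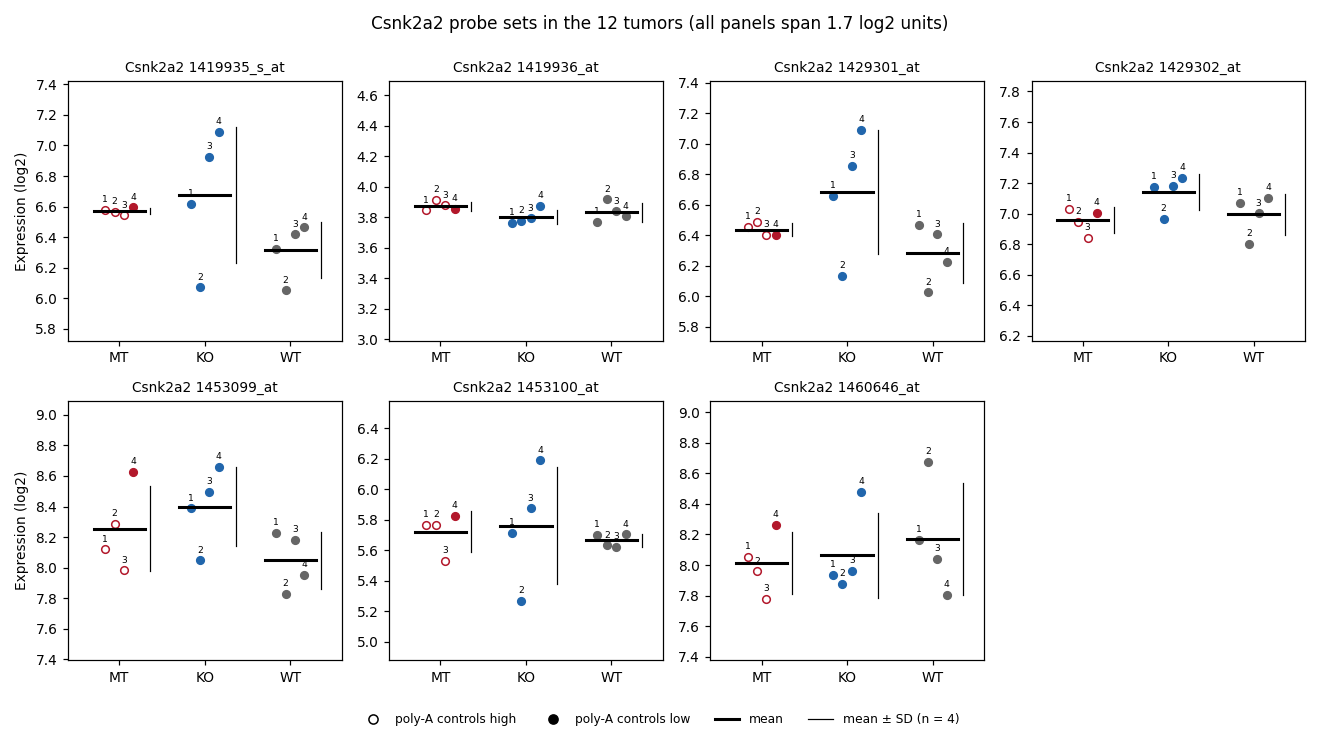
Expression (log2, vertical axis) of the 7 Csnk2a2 probe sets in 4 MT, 4 KO and 4 WT tumors, numbered by tumor, with group means (thick bars) and SD (thin lines); open points are the tumors with high poly-A controls. KO tumors spread from 6.13 to 7.09 at 1429301_at, whereas MT tumors stay between 6.40 and 6.49, and 1419936_at is flat at 3.77 to 3.92.

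Csnk1a1, on chromosome 18, encodes CK1 alpha, the kinase that marks beta-catenin for its later phosphorylation and destruction. The probe set 1451497_at read 7.16, 7.16, 7.22 and 6.87 in MT1 to MT4, 6.89, 6.84, 6.74 and 6.88 in KO1 to KO4, and 7.28, 7.81, 7.40 and 7.24 in WT1 to WT4. All KO tumors and all MT tumors were below every WT tumor, and MT4 lay with the KO tumors. Of the 23 only this probe set, 1 in each comparison, had KO or MT tumors wholly below WT tumors. Of all probe sets, 8.37% had KO tumors and 6.44% had MT tumors wholly below WT tumors. KO fell below WT tumors by 0.60 on the log2 scale (SE 0.13, 1.51-fold lower, limma adjusted p = 0.0341), a call, and the MT minus WT difference was -0.33 (SE 0.13, adjusted p = 0.217). Under the batch block the MT minus WT difference was -0.57 (SE 0.20, adjusted p = 0.5).

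Neither of the 2 other Csnk1a1 probe sets was called. At 1424827_a_at the values were 10.94, 11.28, 10.67 and 11.45 in MT1 to MT4, 11.43, 11.33, 10.63 and 11.01 in KO1 to KO4, and 11.22, 11.04, 11.14 and 11.44 in WT1 to WT4, with a KO minus WT difference of -0.11 (95% interval -0.56 to 0.34). At 1428537_at the range was 9.87 to 10.34 in MT, 9.96 to 10.72 in KO and 10.16 to 10.31 in WT tumors, with a KO minus WT difference of 0.04 (95% interval -0.31 to 0.39). The KO minus WT difference at 1451497_at was lower than that at 1428537_at by a gap of -0.64 (SE 0.20, limma adjusted p = 0.0803) and than that at 1424827_a_at by one of -0.49 (SE 0.26, adjusted p = 0.26), and neither gap was called. The call at 1451497_at was lost in 7 of the 12 fits that left out 1 tumor (MT1, WT1, WT3 or any KO tumor), at differences of -0.65 to -0.56, and without WT2, the highest WT tumor, the difference was -0.47 and was called (adjusted p = 0.0428).

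Csnk1d, on chromosome 11, encodes CK1 delta. None of its 5 probe sets was called. At 1418889_a_at the values were 9.27, 9.23, 9.14 and 8.66 in MT1 to MT4, 8.65, 8.53, 8.69 and 7.88 in KO1 to KO4, and 8.35, 8.56, 8.38 and 8.83 in WT1 to WT4. MT1, MT2 and MT3 were above all other tumors, MT4 was among the KO and WT tumors, and KO4 was the lowest of all. MT exceeded KO tumors by 0.64 (SE 0.20, limma adjusted p = 0.345), and by 0.22 (SE 0.29) under the batch block.

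In the opposite direction, 1456727_a_at read 10.70, 10.39, 10.56 and 10.65 in MT1 to MT4, 10.44, 10.69, 10.67 and 10.46 in KO1 to KO4, and 10.65, 11.23, 11.03 and 10.88 in WT1 to WT4. KO minus WT was -0.38 (SE 0.13, adjusted p = 0.117) and MT minus WT -0.37 (SE 0.13, adjusted p = 0.175), with overlap through WT1. This probe set was nearly uncorrelated with its 4 sisters within genotypes (r from -0.04 to 0.13), whereas these 4 correlated with each other at 0.58 to 0.87. Against 1418889_a_at its MT minus WT difference was lower by 0.92 (SE 0.22, adjusted p = 0.0565), and by 0.43 (SE 0.30) under the batch block.

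The last 3 Csnk1d probe sets shared a low KO4 and a low MT4. At 1449932_at the values were 9.64, 9.76, 9.71 and 9.03 in MT1 to MT4, 9.10, 9.50, 9.67 and 8.49 in KO1 to KO4, and 9.37, 8.93, 9.29 and 9.41 in WT1 to WT4. At 1415825_s_at the range was 8.31 to 9.09 in MT, 8.08 to 8.71 in KO and 8.35 to 8.84 in WT tumors, and at 1437690_x_at it was 9.82 to 10.30 in MT, 9.46 to 10.41 in KO and 9.13 to 10.17 in WT tumors. In both, MT4 gave the lowest MT value and KO4 the lowest KO value. All 5 Csnk1d differences for MT minus KO were above zero, from 0.01 to 0.64, and under the batch block 2 were above and 3 below zero.

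Csnk1e, on chromosome 15, encodes CK1 epsilon, the closest relative of CK1 delta. At 1417175_at the values were 8.79, 8.57, 8.32 and 7.56 in MT1 to MT4, 8.16, 8.69, 7.96 and 8.34 in KO1 to KO4, and 7.75, 8.18, 7.65 and 7.52 in WT1 to WT4. At 1417176_at they were 9.35, 9.25, 9.10 and 8.56 in MT1 to MT4, 8.85, 9.30, 8.70 and 8.46 in KO1 to KO4, and 8.81, 9.04, 8.56 and 8.60 in WT1 to WT4. At both, MT4 was well below the other MT tumors.

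Neither Csnk1e probe set was called. KO exceeded WT tumors by 0.51 at 1417175_at (SE 0.26, limma adjusted p = 0.251) and by 0.08 at 1417176_at (SE 0.21, adjusted p = 0.862). MT exceeded WT tumors by 0.54 (SE 0.26, adjusted p = 0.281) and 0.31 (SE 0.21, adjusted p = 0.439), but under the batch block both values turned negative, -0.21 (SE 0.30) and -0.19 (SE 0.28).

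**Figure D4:**
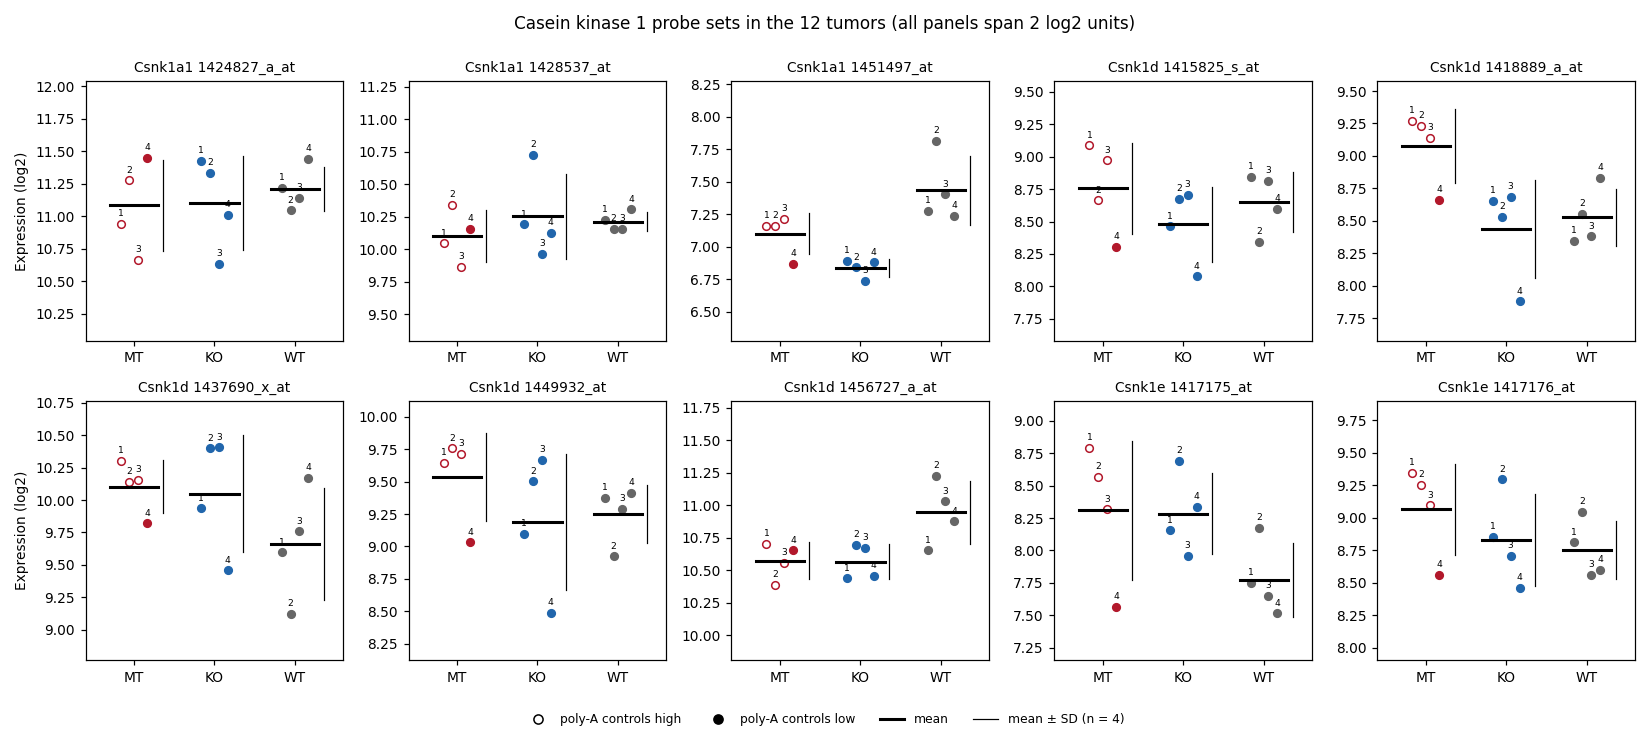
Expression (log2, vertical axis) of the 10 probe sets of Csnk1a1, Csnk1d and Csnk1e in 4 MT, 4 KO and 4 WT tumors, numbered by tumor, with group means (thick bars) and SD (thin lines); open points are the tumors with high poly-A controls. At Csnk1a1 1451497_at all KO tumors (6.74 to 6.89) are below all WT tumors (7.24 to 7.81), as at 8.37% of all probe sets. At both Csnk1e probe sets MT4 is the lowest MT tumor.

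The place of MT4 among the MT tumors differed by gene. MT4 was above all of MT1 to MT3 at 4 of 6 Csnk2a1 and 4 of 7 Csnk2a2 probe sets and below them at 0 of either, whereas it was below them at 4 of 5 Csnk1d and 2 of 2 Csnk1e probe sets and above them at 0. Of the 3 Csnk1a1 probe sets, MT4 was above them at 1, below at 1 and within their range at 1. The level of MT4 minus the mean of MT1 to MT3 ran from 0.03 to 0.76 in Csnk2a1 and from -0.05 to 0.50 in Csnk2a2. It ran from -0.31 to 0.49 in Csnk1a1, from -0.67 to 0.10 in Csnk1d and from -0.99 to -0.67 in Csnk1e. Sister probe sets read the same tumor and are not replicates. Over all probe sets MT4 was above the other MT tumors at 27.7%, below at 35.4% and within their range at 36.9%, with a median size of the difference of 0.24 log2 units, against 0.33 over the 23. MT4 differs from MT1, MT2 and MT3 in its labeling controls, in its 18S rRNA signal (7.66, against 6.41 to 6.59), in its Trp53 level (7.88 and 8.18 at the 2 probe sets, against 8.80 to 9.04 and 9.13 to 9.30) and as a tumor, and these cannot be told apart.

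Genes that act with the casein kinases were read from 5 lists. The relatives of CK1 (Csnk1g1, Csnk1g2, the Vrk kinases and Ttbk2) had 7 probe sets for 6 of 8 genes, and 0 were called in any of the comparisons. Partners and substrates of CK2 had 23 probe sets for 9 of 11 genes, of which 1 was called higher and 1 lower, both in KO minus WT, where 4.57% of all probe sets were called (1.94% higher and 2.64% lower). Cdc34, a ubiquitin-conjugating enzyme, was lower in KO (mean 8.02) than in WT tumors (8.98) by 0.95 (SE 0.16, limma adjusted p = 0.0144), and Eif2s2, the beta subunit of the translation initiation factor eIF2, had 1 dim probe set (1441023_at) higher in KO (6.54) than in WT tumors (5.61) by 0.93 (SE 0.23, adjusted p = 0.044). The other 5 Eif2s2 probe sets had KO minus WT differences of -0.16 to 0.26 and were not called.

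Of the genes around beta-catenin, with 23 probe sets for 12 of 12 genes, 1 was called. This was in KO minus WT, where 4.57% of all probe sets were called (1.94% higher). Lrp6, a Wnt co-receptor that CK1 enzymes phosphorylate, was higher in KO (10.09) than in WT tumors (8.89) by 1.21 at 1428500_at (SE 0.22, limma adjusted p = 0.0183). Its second probe set, 1451022_at, had a difference of 0.74 and was not called (adjusted p = 0.0896). Of the clock repressors and the ligases that remove them, with 13 probe sets for 7 of 8 genes, 1 was called, again in KO minus WT with its share of 4.57%. Fbxw11, a beta-TrCP ubiquitin ligase that recognizes phosphorylated PER and beta-catenin, was higher in KO (10.61) than in WT tumors (9.99) by 0.62 at 1437468_x_at (SE 0.15, limma adjusted p = 0.0422, and 0.0502 under the batch block). Its 2 other probe sets were not called, with 6.14 in KO and 6.85 in WT tumors at 1425461_at (difference -0.71) and a difference of 0.10 at 1425462_at. No probe set of Per1, Per2, Per3, Cry1 or Cry2 was called. The Fam20 proteins of the Golgi, of which the kinase Fam20c phosphorylates secreted casein, with the milk caseins had 13 probe sets for 7 of 8 genes and 0 calls. No list had a call in MT minus KO or in MT minus WT.

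The probe sets whose levels across the 12 tumors were most like those of a member were named by the Pearson correlation, as a description. For Csnk2a1 1419036_at these were Haus2 (r = 0.91), a subunit of the augmin complex of the mitotic spindle, Pafah1b1 (0.91), a regulator of dynein, and Zfp651 (0.90). For Csnk2a2 1453099_at they were a probe set of the other catalytic subunit, Csnk2a1 1419038_a_at (0.89), then Crim1 (0.88) and Zfp82 (0.86). For Csnk1a1 1424827_a_at they were Eif1a (0.89), Wdr33 (0.88) and Tdrd7 (0.87), for Csnk1d 1456727_a_at Mos (0.95), Lrig1 (0.95) and Esrrb (0.94), and for Csnk1e 1417176_at Src (0.90), Samm50 (0.89) and Mcat (0.88). Crim1, Mos and Esrrb were the dimmest of these, with group means of 3.90 to 5.12 against a median of all values of 6.93. The filter on dim values was not applied to this search. The closest partner of the Csnk2a2 probe set of highest mean was thus a Csnk2a1 probe set other than 1419036_at, 1 of the 3 at which MT4 lay apart from MT1 to MT3.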

How the data were processed

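RNA of 12 tumors was hybridized to Affymetrix mouse arrays, 1 per tumor. The deposited values are log2 levels, which by the methods the authors made with RMA (background correction, quantile normalization and median polish), while the submitters' processing notes name RMA and MAS5 without versions. The table held 22690 probe sets, from which 64 array controls were removed. Of the 22626 tested, 20380 had 1 symbol in the platform annotation, 691 several and 1555 none. Trp53 was identified by probe set names in the study's supplement.

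A limma model (version 3.58.1, R 4.3.3) of genotype means used all 12 tumors (9 residual degrees of freedom, 2-sided tests), and p-values were adjusted by Benjamini-Hochberg over every probe set tested, or over all 12821 sister pairs for differences within a tumor (later probe set number minus earlier). SAM used 100 permutations. Quantile normalization fixes the overall distribution of each array, so a change of total RNA is not seen. With 4 tumors per genotype the number of arrays limits the precision. The dim filter asked for levels above the median of all values (6.93) in at least 4 arrays. Array correlations were at most 0.983, so no 2 arrays held copied values. Promoters were read from RefSeq windows with Python 3.11.15 and figures drawn with matplotlib.

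All member probe sets are reported, and of the lists the genes with a call. The members, lists and alternatives were chosen with earlier results of these data known. The steps were run on simulated data with independent noise and shifts in KO tumors alone. Those data held no correlated sister probe sets and no batch, so they do not show how the tests perform here. The deviations of same-numbered tumors of different genotypes from their group means correlated at 0.002 to 0.335, above 0.1 in 6 of 12 pairs. Tumors of different numbers were not correlated for comparison, so these values cannot say whether the numbers pair tumors. The labels name no pairing, so none was used in the main fit, and a replicate block was run as an alternative. Other alternatives were the dim filter, centering, cyclic loess, fits to 8 tumors, robust moderation together with a mean-variance trend, weights for arrays, the labeling batch, the hybridization controls, an ordinary t statistic and each tumor left out in turn.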

Additional observations from a re-analysis of the deposited data

Results flagged for a closer look

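In 6 of the 69 groups of 4 tumors, formed by 23 probe sets in 3 genotypes, the highest or lowest tumor stood far from the other 3 for the spread of its group. For independent groups of normally distributed values the rule flags about 1 in 20. The 23 probe sets share tumors and genes, and the share over all probe sets was not counted, so no excess can be read from the 6. MT4 was the tumor in 3 of them, at 8.31 in Csnk2a1 1419038_a_at (the other MT tumors 7.53 to 7.58), at 6.87 in Csnk1a1 1451497_at (7.16 to 7.22) and at 9.03 in Csnk1d 1449932_at (9.64 to 9.76). MT4 is also the MT tumor whose poly-A controls were low. KO4 was the tumor in 2, at 7.70 in Csnk2a1 1419037_at (the other KO tumors 8.51 to 8.52) and at 8.48 in Csnk2a2 1460646_at (7.88 to 7.96). WT2 was the tumor in the last, at 5.11 in Csnk2a1 1453427_at (the other WT tumors 5.42 to 5.46).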

How the results depend on the processing

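Of the casein kinase probe sets called in KO minus WT (1), 0 were called with dim probe sets left out, with 8 tumors, with a trend and robust moderation and with the methods' t-test, 3 with array weights, 2 with the replicate block (1453427_at of Csnk2a1 added, adjusted p = 0.0424) and 0 to 1 without 1 tumor. Of those called in MT minus WT (1), 0 were called with 8 tumors, with a trend and robust moderation, with a block for the labeling batch and with the methods' t-test, 6 with array weights and 0 to 1 without 1 tumor. The replicate block changed no other call of a single probe set. For the 3 genotypes (0), SAM called 1. Of sister pairs in MT minus KO (2), 0 were called with 8 tumors and with a block for the labeling batch, and 0 to 5 without 1 tumor. Sister pairs in KO minus WT (0) gave 0 to 3 without 1 tumor (3 without WT4). Sister pairs in MT minus WT (0) gave 1 with dim probe sets left out, and 0 to 5 without 1 tumor (3 without WT4, 1 without KO4, 5 without MT4). The share called over all pairs in MT minus WT also rose without MT4 and with dim probe sets left out. Without MT4 it exceeded the casein kinase share. For the fits without WT4 or KO4 the share over all pairs is not given, so no excess can be read from those counts. Of 1500 single values recomputed, none reversed a call, 20 lost and 8 gained one, and 74 that were uncalled in both changed sign. Why the calls moved was not tested. With 4 arrays per genotype and 6 dim probe sets, small differences cannot be seen. Over these settings all probe sets called, MT minus KO ran from 0 to 235 (2 in the report, 44 with array weights, 235 without MT4), all probe sets called, KO minus WT from 10 to 3280 (1035 in the report, 10 with the methods' t-test, 3280 with array weights) and all probe sets called, MT minus WT from 0 to 4973 (83 in the report, 0 with the methods' t-test, 4973 with array weights).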
